A study of Mus musculus with 32 samples.

Results

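The 8 genes described here encode complement components and regulators that were read in fibro-adipogenic progenitors (FAPs), the resident stromal progenitors of skeletal muscle. They are C1ra, C1s1, C2, C3, C4b, Cfb, Serping1 and Cd55, taken by gene symbol from the 55487 genes counted in the study. They were chosen by their levels in these libraries, which place them in FAPs, so their levels by cell type are given as a description with no test. Whether their change between days entered that choice is not given, so the tests between days are not independent evidence for the genes.

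The study asked whether transplanted brown adipose tissue (BAT) acts on muscle regeneration. In the BAT group, wild-type C57BL/6J supraspinatus muscle, a muscle of the rotator cuff, was injured with cardiotoxin and then received interscapular BAT from a donor mouse 3 weeks of age. In the CTL group, the paired muscle of the same mouse received cardiotoxin with no transplant, so both groups were injured. The mice were labelled as males 12 weeks of age, and cells were taken at day 7 or day 3. FAPs were described as sorted CD45-, CD31-, Sca1+ and a7integrin- cells. Satellite cells, the muscle stem cells, were described as CD45-, CD31-, Sca1+ and a7integrin+ cells. Bulk RNA sequencing gave 32 libraries, 4 in each of 8 groups made of cell type, treatment and day. The mice differed between days and each day has its own deposited table, so day, mouse and table cannot be told apart. Uninjured muscle was not analysed here.

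Complement is a cascade of plasma proteins and their regulators. In the classical pathway the proteases C1r and C1s cleave C4 and C2, whose fragments form a convertase that cleaves C3. In the alternative pathway factor B joins C3b to form another C3 convertase, so C3 is the point where both pathways meet. C1 inhibitor, encoded by Serping1, blocks C1r and C1s, and CD55 (decay-accelerating factor) takes C3 convertases apart on the surface of the cell that carries it. The liver is the main source of the plasma proteins, and fibroblasts and other stromal cells are also known to make several of them.

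In these FAPs, all 8 genes were higher at day 7 than at day 3, by 2.66-fold to 7.86-fold in mean level in control muscle. In neither treatment did the day 7 and day 3 libraries overlap, but the share of all genes without overlap was not counted. Of all genes tested, 11.5% were called higher at day 7 in control FAPs and 10.3% in FAPs with BAT. None of the 8 passed the test between BAT and CTL on either day. In satellite cells the levels were lower. In control satellite cells 5 of the 8 genes were called higher at day 7 than at day 3, where 29.6% of all genes were. Of these 5, C1ra and C4b lost their calls without replicate 2.

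In mm10, C1ra lies on chromosome 6 from 124512405 to 124523443 on the plus strand, and C1s1 lies close to it from 124530345 to 124542359 on the minus strand. C4b (34728380 to 34743882), Cfb (34856374 to 34862518) and C2 (34862604 to 34898265) lie together on the minus strand of chromosome 17, and C3 lies farther along that strand from 57203970 to 57228136. Serping1 spans 84765387 to 84775444 on the minus strand of chromosome 2, and Cd55 spans 130439027 to 130462744 on the minus strand of chromosome 1. The deposited values are given per gene, not per transcript or exon. C1ra, C1s1, C4b and Cd55 have the close relatives C1rb, C1s2, C4a and Cd55b, with which reads may be shared. In control FAPs at day 7 these relatives stood at 7.22%, 0.331%, 0.494% and 0.021% of the level of their partners. The read-through gene Gm20547 covers Cfb and part of C2 on the same strand, and genes on the opposite strand overlap C1s1 (Gm16567), C2 (Zbtb12) and Cd55 (Gm16083). No strand setting is given in the sources used here, so reads from such pairs cannot be told apart.

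Because the 8 genes moved together between days, the stretches before their starts were searched for short motifs of factors known from inflammatory signalling. A window was found for 4 of the 8 genes in the RefSeq promoter table (GRCm38.p6), namely C1ra, C1s1, C3 and Cd55, and none was found for C2, C4b, Cfb and Serping1. The windows of 3 genes are shown 5′ to 3′ on the gene's strand, and each holds the 250 bases before the RefSeq start. The windows are chr6:124542360-124542609, minus strand, for C1s1 (the first of its RefSeq starts), chr17:57228137-57228386, minus strand, for C3, and chr1:130462745-130462994, minus strand, for Cd55. Capitals mark matches to the C/EBP motifs TTGCNNAA and TTGCNNNAA, searched on both strands. The window of C1ra reaches into the gene as GENCODE annotates it and is not printed.
C1s1: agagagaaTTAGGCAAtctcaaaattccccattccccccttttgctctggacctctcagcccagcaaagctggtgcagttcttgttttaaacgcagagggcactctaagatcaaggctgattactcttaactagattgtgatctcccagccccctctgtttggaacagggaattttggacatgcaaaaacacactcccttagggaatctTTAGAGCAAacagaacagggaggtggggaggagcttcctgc
C3: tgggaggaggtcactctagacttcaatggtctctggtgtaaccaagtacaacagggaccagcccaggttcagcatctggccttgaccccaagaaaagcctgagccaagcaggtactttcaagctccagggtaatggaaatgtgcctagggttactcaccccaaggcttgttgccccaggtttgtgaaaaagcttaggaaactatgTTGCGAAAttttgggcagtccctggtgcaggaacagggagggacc
Cd55: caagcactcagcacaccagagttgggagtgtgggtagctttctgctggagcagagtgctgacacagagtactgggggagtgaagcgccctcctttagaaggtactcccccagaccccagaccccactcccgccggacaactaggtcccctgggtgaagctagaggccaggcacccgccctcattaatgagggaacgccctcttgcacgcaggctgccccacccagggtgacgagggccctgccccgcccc
The C3 window holds TTGCNNAA on the gene's strand, from 45 to 38 bases before the start. The C1s1 window holds TTGCNNAA on the other strand, from 242 to 235 bases before the start, and TTGCNNNAA on the other strand, from 41 to 33 bases before it. A window before another RefSeq start of C1s1, not printed, holds TTGCNNNAA but no TTGCNNAA. The C1s1 matches thus depend on the start taken. Over all 32851 windows of the table, 9.56% hold TTGCNNAA and 8.29% hold TTGCNNNAA. The windows of C1ra and Cd55 hold neither, and none of the 4 genes has a match to the interferon response (ISRE) motif, TTCNNNGAA, TGANTCA or the NF-kB motif, which occur in 2.98%, 7.02%, 6.75% and 7.25% of all windows. A match describes letters in a window and is not a binding site.

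Library totals ran between 19.8 and 46.4 M (M, 1000000 counts), with a median of 25.7 M. Levels are given in CPM, the counts of a gene per 1000000 counts of the library. A count of 0 allows, at 3 counts, a level of up to 0.065 to 0.15 CPM, depending on the library. The libraries labelled FAP carried FAP transcripts, with Pdgfra, a receptor that defines these cells, at 251 to 436 CPM in all 16 of them. Ly6a, the gene of Sca1, averaged 5.95 CPM in control satellite cells and 760.4 CPM in control FAPs at day 7. At day 3 it averaged 11.1 and 826 CPM, RNA levels that go against the Sca1+ description of satellite cells. The FAP library with BAT at day 3 of replicate 1 also carried macrophage transcripts, with a summed level over 12 marker genes of 4681 CPM against 15.2 to 105 CPM in the other 15 FAP libraries. Among satellite cells at day 3, BAT replicate 4 (1869 CPM) and CTL replicate 3 (1648 CPM) carried macrophage transcripts as well. Replicate numbers at day 3 differ between the cell types, and by the labels' mouse codes the FAP library of replicate 1 and the satellite cell library of replicate 4 with BAT came from the same muscle. In the 4 libraries of the day 7 mouse of replicate 3, Xist stood at 163 to 355 CPM and Ddx3y at 0, against at most 0.161 CPM and 29.1 to 108 CPM in the other 28 libraries, which goes against the label of a male mouse. Values without these libraries are given beside the results they moved most.

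**Figure D1:**
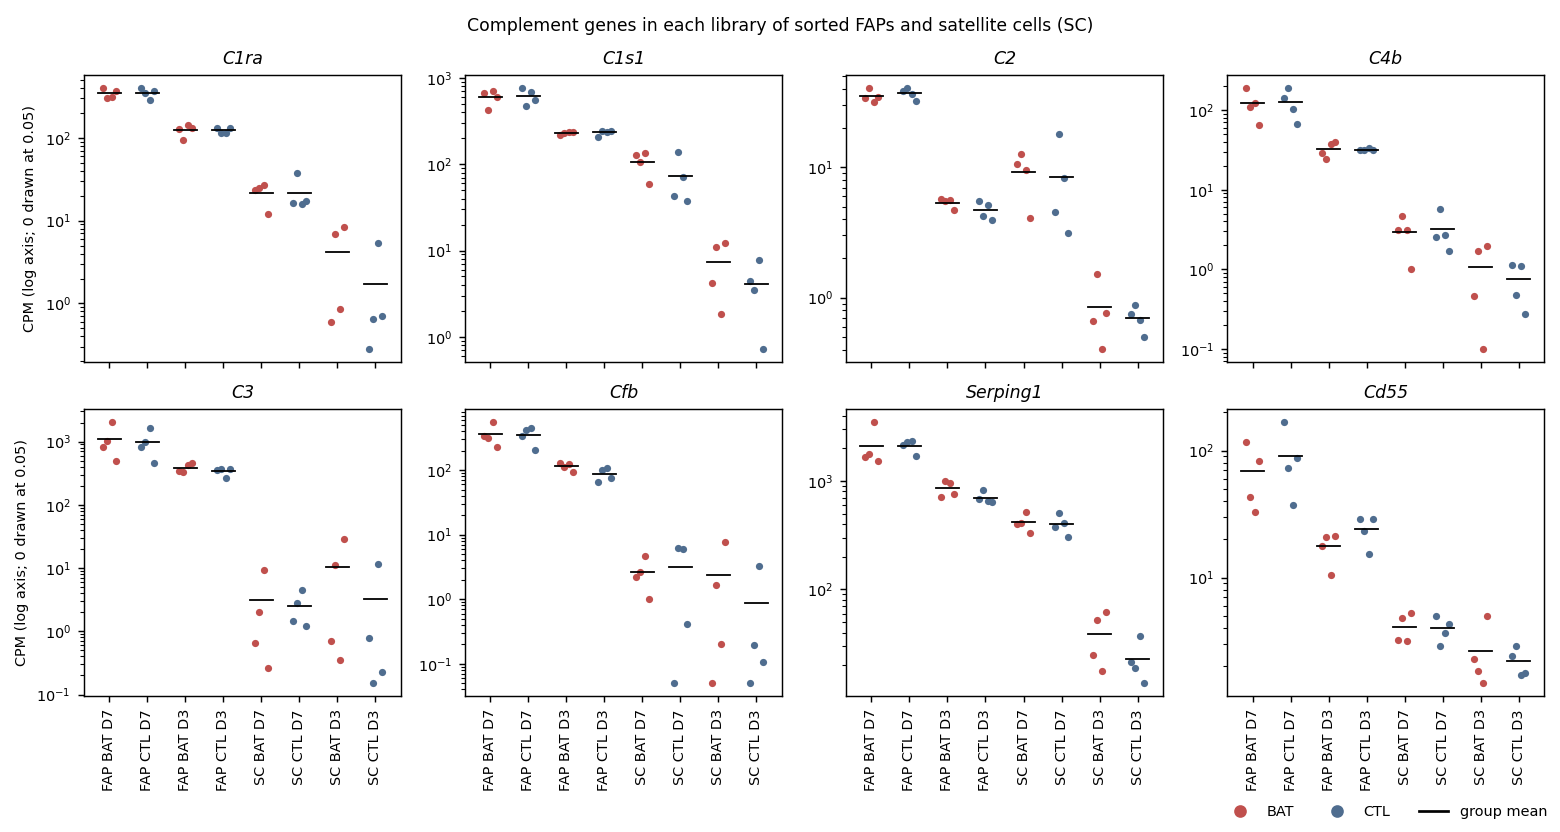
Level in CPM of the 8 complement genes in each library on a log axis, for FAPs (left 4 groups) and satellite cells (SC, right 4 groups), with points for single libraries and a bar for the group mean of 4. In every panel the FAP libraries at day 7 lie above the FAP libraries at day 3, and C3 reaches 2042 CPM in FAPs with BAT at day 7 against at most 29.2 CPM in satellite cells.

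The genes of the proteases that start the classical pathway were higher at day 7. C1ra, which encodes C1r, stood at 396, 347, 289 and 364 CPM in control FAPs at day 7, against 133, 115, 113 and 131 CPM at day 3. In FAPs with BAT it stood at 405, 304, 312 and 372 CPM at day 7, against 128, 94.3, 142 and 131 CPM at day 3. The days were well separated in both treatments, and the treatments overlapped on both days. The fitted log2 change from day 3 to day 7 was 1.58 ± 0.15 (SE, n = 4 each) in control FAPs (edgeR quasi-likelihood test with Benjamini-Hochberg adjustment over all genes, adjusted p = 0.000662) and 1.51 ± 0.16 in FAPs with BAT (edgeR adjusted p = 0.00074). C1s1, which encodes the partner protease C1s, stood at 776, 481, 683 and 551 CPM in control FAPs at day 7, against 208, 246, 236 and 246 CPM at day 3. With BAT the values were 667, 423, 717 and 606 CPM at day 7, against 221, 232, 235 and 235 CPM at day 3. The 8 day 3 libraries of C1s1 lay within a narrow band and every day 7 library lay above it. Its log2 change was 1.47 ± 0.18 in control FAPs (edgeR adjusted p = 0.00137) and 1.40 ± 0.16 with BAT (edgeR adjusted p = 0.00112).

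C2 and C4b encode the 2 substrates from which these proteases build the classical C3 convertase. C2 stood at 38.2, 40.9, 36.6 and 32.5 CPM in control FAPs at day 7, against 5.50, 4.22, 5.18 and 3.94 CPM at day 3. With BAT it stood at 34.1, 40.8, 31.9 and 34.5 CPM at day 7, against 5.67, 5.48, 5.64 and 4.70 CPM at day 3. Mean C2 was 7.86-fold higher at day 7 in control FAPs and 6.58-fold higher with BAT, which was the largest day change among the 8 genes in both treatments. Its log2 change was 3.05 ± 0.19 in control FAPs (edgeR adjusted p = 6.48e-05) and 2.75 ± 0.19 with BAT (edgeR adjusted p = 0.000127). C4b stood at 141, 191, 102 and 66.5 CPM in control FAPs at day 7, against 31.3, 31.1, 33.1 and 31.9 CPM at day 3. With BAT the values were 188, 108, 123 and 65.3 CPM at day 7, against 28.9, 24.4, 37.0 and 39.3 CPM at day 3. Control libraries of C4b at day 3 lay close together, whereas the day 7 libraries spread widely and replicate 4 was the lowest in both treatments. The log2 change was 2.08 ± 0.32 in control FAPs (edgeR adjusted p = 0.00296) and 1.93 ± 0.29 with BAT (edgeR adjusted p = 0.00331).

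C3 is the central component, and its fragments mark surfaces for removal. It stood at 821, 981, 1631 and 459 CPM in control FAPs at day 7, against 360.4, 372, 269 and 366 CPM at day 3. In FAPs with BAT it stood at 826, 1031, 2042 and 496 CPM at day 7, against 341, 325, 428 and 457 CPM at day 3. The days did not overlap, but replicate 4 at day 7 lay only a little above the day 3 libraries in both treatments. The log2 change of C3 was 1.59 ± 0.34 in control FAPs (edgeR adjusted p = 0.00945) and 1.56 ± 0.39 with BAT (edgeR adjusted p = 0.0199). This call depended on single replicates, with an edgeR adjusted p of 0.0513 without replicate 2 in control FAPs, and of 0.0535 without replicate 1 and 0.112 without replicate 2 with BAT. Cfb, which encodes factor B, the protease of the alternative C3 convertase, stood at 339, 419.7, 449 and 205 CPM in control FAPs at day 7, against 65.6, 102, 109 and 76.5 CPM at day 3. With BAT it stood at 339, 315, 558 and 226 CPM at day 7, against 128, 113, 125 and 95.2 CPM at day 3. As for C3, replicate 3 was the highest and replicate 4 the lowest at day 7 in both treatments. The log2 change of Cfb was 2.08 ± 0.31 in control FAPs (edgeR adjusted p = 0.00237) and 1.67 ± 0.27 with BAT (edgeR adjusted p = 0.00387).

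The regulators rose as well. Serping1 stood at 2149.5, 2285, 2327 and 1693 CPM in control FAPs at day 7, against 678, 827, 659 and 646 CPM at day 3. In FAPs with BAT it stood at 1659.6, 1765, 3494 and 1527 CPM at day 7, against 705, 993, 961 and 764 CPM at day 3. Every day 7 library lay above every day 3 library, and the BAT library of replicate 3 stood apart at the top of its group. The log2 change of Serping1 was 1.66 ± 0.21 in control FAPs (edgeR adjusted p = 0.00149) and 1.34 ± 0.29 with BAT (edgeR adjusted p = 0.0102). Cd55 stood at 168, 72.3, 37.4 and 87.7 CPM in control FAPs at day 7, against 29.1, 23.4, 15.3 and 29.0 CPM at day 3. With BAT it stood at 117, 42.9, 32.7 and 82.2 CPM at day 7, against 17.7, 20.9, 10.5 and 21.2 CPM at day 3. Replicate 1 was the highest and replicate 3 the lowest at day 7 in both treatments, so the mouse with the most C3 had the least Cd55. The log2 change of Cd55 was 1.98 ± 0.38 in control FAPs (edgeR adjusted p = 0.00669) and 1.96 ± 0.37 with BAT (edgeR adjusted p = 0.00683), and the BAT value missed the threshold without replicate 4 (edgeR adjusted p = 0.0524).

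Thus 8 of 8 genes passed the test with a higher level at day 7 in control FAPs, where 23.0% of all genes tested were called and 11.5% were called higher. Over all genes the count of 3716 calls fell to 1915, 2231 and 1250 without replicate 1, 2 or 4. With BAT 8 of 8 passed, where 22.8% of all genes were called and 10.3% were called higher, and 3668 calls over all genes fell to 1981, 1781 and 1051 without replicate 1, 2 or 4. The median log2 change of the 8 genes was 1.82 in control FAPs and 1.61 with BAT, beside medians of 0.09 and 0.04 over all genes tested. Nothing is read from these shares, since the choice of the genes may have used the days. Leaving out the day 7 library of replicate 3, or the macrophage-bearing day 3 library with BAT, kept all 8 calls in the comparison each belongs to. The 8 FAP marker genes summed to 8347 to 19389.6 CPM in control FAPs at day 7 and to 5835 to 6898 CPM at day 3, although Pdgfra averaged 294 CPM at day 7 and 324 CPM at day 3. Transcripts of some other cell types were also higher at day 7 in control FAPs. The 6 markers of mature muscle fibres summed to 45.9 to 144 CPM at day 7, against 0.72 to 3.42 CPM at day 3. The 4 erythroid markers summed to 30.3 to 88.7 CPM at day 7, against 4.28 to 11.4 CPM at day 3. The 6 endothelial markers summed to 2.16 to 36.5 CPM at day 7 and 1.37 to 2.23 CPM at day 3, and the 6 adipocyte markers to 0.623 to 22.8 CPM at day 7 and 0.0441 to 0.417 CPM at day 3. The part of these shifts in the change of the complement genes was not tested. Summed macrophage, neutrophil and lymphocyte markers overlapped between days in control FAPs. They averaged 43.9, 0.259 and 0.821 CPM at day 7 and 39.3, 0.2 and 0.984 CPM at day 3. In bulk RNA of sorted cells, a larger share of cells that express a gene and more RNA per cell cannot be told apart.

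**Figure D2:**
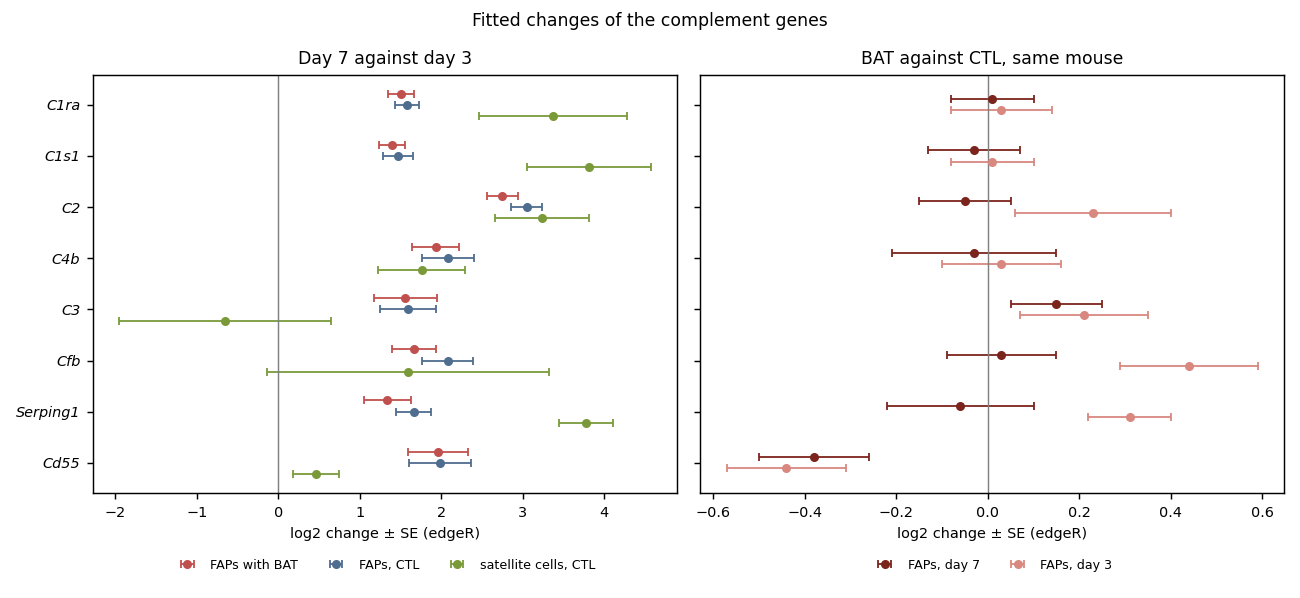
Fitted log2 changes with standard errors for the 8 complement genes, for day 7 against day 3 (left panel; FAPs with BAT, control FAPs and control satellite cells) and for BAT against CTL in FAPs of the same mouse (right panel; day 7 and day 3). The FAP changes between days lie between 1.34 and 3.05, whereas the changes with BAT lie between -0.44 and 0.44.

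Levels were compared between genes after division by exon length. In control FAPs at day 7, Serping1 was the highest at 907 ± 125 CPM per kb (SD, n = 4), followed by C1s1 at 199 ± 42.2 and C3 at 189 ± 95.4 CPM per kb, which did not differ beyond their spread. Cfb at 125 ± 38.6 and C1ra at 117 ± 15 CPM per kb came next and were as close to each other. C4b at 22 ± 9.41 and Cd55 at 18.8 ± 11.4 CPM per kb lay lower, and C2 was the lowest at 9.57 ± 0.916 CPM per kb. Transcripts of the C1 inhibitor thus stood above those of the proteases it blocks on this per-length scale.

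The spread between mice was larger at day 7 than at day 3 for 7 of the 8 genes. For the mean of a mouse's BAT and CTL libraries, the highest mouse stood above the lowest by 4.06-fold for Cd55, 3.85-fold for C3, 2.49-fold for C4b and 2.34-fold for Cfb at day 7, whereas C1ra and C2 differed by only 1.33-fold and 1.22-fold. At day 3 the corresponding ratios were 1.94 for Cd55, 1.18 for C3, 1.28 for C4b, 1.36 for Cfb, 1.25 for C1ra and 1.29 for C2, the exception. At day 7 the BAT and CTL libraries of a mouse were closer to each other than the mice were for 7 of the 8 genes, as for C3, with a mean absolute log2 difference of 0.13 within a mouse beside an SD between mice of 0.80. Serping1 was the exception at 0.37 within a mouse beside 0.35 between mice. At day 3 the difference within a mouse exceeded the SD between mice for 6 of the 8 genes, among them Cfb (0.40 beside 0.20) and C3 (0.32 beside 0.12). The difference sets single libraries against each other, whereas the SD uses means of 2 libraries. Mice that did not differ would thus give the larger value within a mouse, and nothing is read from the 6 genes. These counts were not made over all genes. The mouse of replicate 3 at day 7, which had the most C3, Cfb and Serping1 in both treatments, is the one whose Xist and Ddx3y levels go against its label. Its FAP libraries also had the highest summed level of 12 macrophage markers at day 7 (101 CPM for BAT and 105 CPM for CTL, where the other day 7 FAP libraries had 17.4 to 32.3 CPM), and the part of either in its complement levels was not tested. At day 3 the macrophage-bearing BAT library of replicate 1 had 341 CPM of C3 and 705 CPM of Serping1, within or below the range of the other BAT libraries, but 128 CPM of Cfb, the highest of its group (95.2 to 125 CPM in the others).

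**Figure D3:**
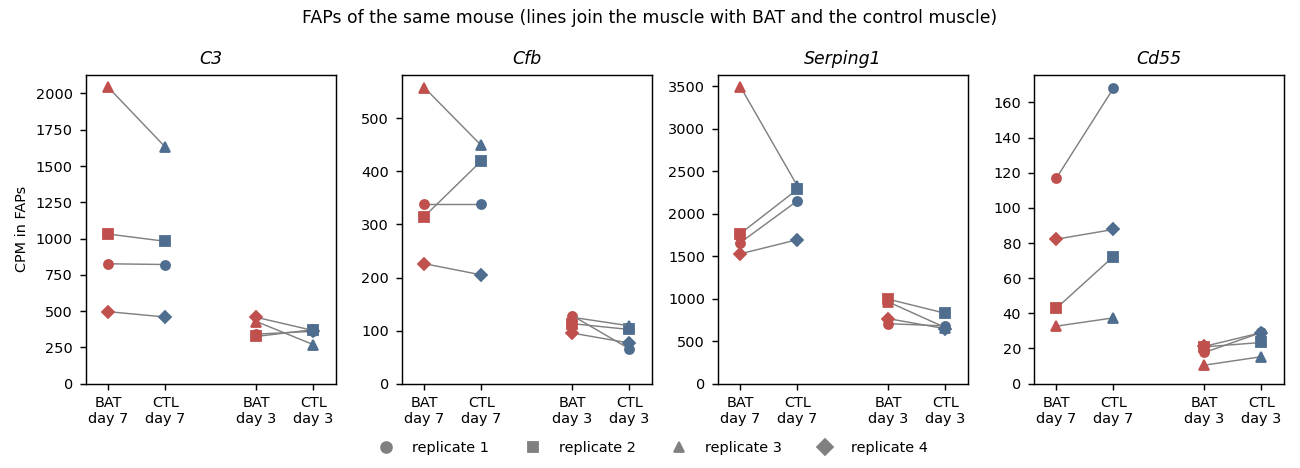
CPM of C3, Cfb, Serping1 and Cd55 in FAPs, with lines joining the BAT and CTL muscles of 1 mouse and symbols marking the replicate. Cd55 is lower with BAT in 4 of 4 mice on each day. At day 7 the lines of C3 are nearly level except in replicate 3 (BAT to CTL ratio 1.25), while the mice lie far apart.

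The transplant was tested within mice. In FAPs at day 7, 0 of 8 complement genes passed the edgeR quasi-likelihood test between BAT and CTL, where 0 of 16021 genes tested (0%) passed, 776 had an unadjusted p under 0.05 and 23 passed with DESeq2. At day 3, 0 of 8 passed, where 4 of 15948 genes (0.0251%) passed and 736 had an unadjusted p under 0.05. The count over all genes at day 3 was 33 without replicate 1, the pair with the macrophage-bearing library, and 0 without replicate 3 or without replicate 4. With DESeq2, 0 of 8 passed on each day. The fitted changes were small, and those of C1ra, C1s1 and C4b lay between -0.03 and 0.03 on the log2 scale on both days. C3 had a log2 change of 0.15 ± 0.10 at day 7 and 0.21 ± 0.14 at day 3, and C2 one of -0.05 ± 0.10 at day 7 and 0.23 ± 0.17 at day 3.

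Cd55 had the most regular difference. Its level was lower with BAT than in the control muscle of the same mouse in 4 of 4 mice at day 7, with ratios of 0.695, 0.593, 0.876 and 0.938, and in 4 of 4 mice at day 3, with ratios of 0.607, 0.892, 0.687 and 0.732. The groups overlapped on both days. The log2 change was -0.38 ± 0.12 at day 7 (unadjusted p = 0.0118, edgeR adjusted p = 0.957) and -0.44 ± 0.13 at day 3 (unadjusted p = 0.00859, edgeR adjusted p = 0.981), so it did not pass after adjustment. A fit over both days, added after these values were seen, gave -0.40 ± 0.08 (edgeR adjusted p = 0.305), and DESeq2 gave the same change with an adjusted p of 0.015, so that the call depended on the tool. In that fit 0 of 17284 genes (0%) passed with edgeR, 1155 had an unadjusted p under 0.05 and 48 passed with DESeq2. C3 exceeded its CTL level in 4 of 4 BAT muscles at day 7, with ratios of 1.01, 1.05, 1.25 and 1.08. How many of all genes had the same direction in 4 of 4 mice was not counted. At day 3, C2, Cfb and Serping1 exceeded their CTL levels in 4 of 4 BAT muscles, with log2 changes of 0.44 ± 0.15 for Cfb (edgeR adjusted p = 0.981) and 0.31 ± 0.09 for Serping1 (edgeR adjusted p = 0.981). The BAT to CTL ratio of Cfb was 1.95 in the mouse of the macrophage-bearing library and 1.11 to 1.24 in the other 3, and without that mouse the log2 change of Cfb was 0.23 and that of Serping1 0.36. At day 7 the changes were 0.03 ± 0.12 for Cfb, higher in 3 of 4 mice, and -0.06 ± 0.16 for Serping1, higher in 1 of 4 mice. Without the mouse of replicate 3, whose Xist level goes against its label, they were -0.07 for Cfb and -0.28 for Serping1. The difference of the BAT change between day 7 and day 3 was -0.40 ± 0.21 for Cfb and -0.36 ± 0.20 for Serping1, both with an edgeR adjusted p of 1, and 0 of 8 genes passed this test, as did 0 of 17284 genes (0%), of which 554 had an unadjusted p under 0.05. With DESeq2 1 gene passed this test.

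FAPs stood above satellite cells for all 8 genes on both days, which is the pattern the list was made for. In control muscle at day 7, the fitted log2 difference of FAPs from satellite cells was 9.07 ± 0.22 for C3, 7.93 ± 0.94 for Cfb, 5.76 ± 0.18 for C4b, 4.79 ± 0.31 for Cd55, 4.52 ± 0.24 for C1ra, 3.71 ± 0.38 for C1s1, 2.84 ± 0.13 for Serping1 and 2.83 ± 0.35 for C2. At day 3 it was 8.21 ± 1.47 for C3, 7.24 ± 1.25 for Cfb, 5.60 ± 0.34 for C4b, 3.53 ± 0.31 for Cd55, 6.75 ± 0.90 for C1ra, 6.15 ± 0.62 for C1s1, 5.15 ± 0.34 for Serping1 and 2.85 ± 0.26 for C2. C3 and Cfb had the highest fitted values on both days, but at day 3 they lay within their errors of C1ra and C1s1, and several satellite cell levels of both lie near the floor. At day 7 C2 and Serping1, the lowest, did not differ beyond their errors. Of all genes tested, 45.1% at day 7 and 71.6% at day 3 were called in this comparison, and 22.6% at day 7 and 35.8% at day 3 were called higher in FAPs. Across the 8 groups, the level of every gene was highest in FAPs at day 7, where BAT and CTL libraries overlapped for all 8. FAPs at day 3 came next for 7 of the 8 genes, again with overlap between treatments, while C2 in satellite cells at day 7 averaged 9.21 CPM with BAT and 8.50 CPM in control, above the 5.37 CPM with BAT and 4.71 CPM in control of FAPs at day 3, with overlapping libraries.

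Satellite cells were then compared between days, a comparison added after the levels were seen. Serping1 stood at 379.8, 502, 412 and 304 CPM in control satellite cells at day 7, against 21.7, 18.8, 37.6 and 13.7 CPM at day 3, a log2 change of 3.78 ± 0.33 (edgeR adjusted p = 1.59e-05). C1s1 stood at 42.6, 138, 71.9 and 37.4 CPM at day 7, against 4.43, 3.49, 7.81 and 0.725 CPM at day 3, a log2 change of 3.81 ± 0.76 (edgeR adjusted p = 0.00365). Neither gene overlapped between days, and the share of all genes without overlap was not counted. C1ra, C2 and C4b were also higher at day 7, with log2 changes of 3.37 ± 0.91 (edgeR adjusted p = 0.0143), 3.24 ± 0.58 (edgeR adjusted p = 0.000981) and 1.76 ± 0.53 (edgeR adjusted p = 0.0142), which makes 5 of 8 genes higher, where 59.2% of all genes were called and 29.6% were called higher. C1ra and C4b lost their calls without replicate 2, at log2 changes of 2.69 and 1.13, and C1ra also without replicate 4, at 3.25. Cfb had a log2 change of 1.59 ± 1.73 and Cd55 one of 0.46 ± 0.28, and neither passed. Without replicate 2 Cd55 passed at 0.82, and without the control library of replicate 3 at day 3, described next, Cfb had a change of 4.46.

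C3 in satellite cells was low. It stood at 1.43, 2.81, 4.57 and 1.23 CPM in control satellite cells at day 7, against 0.795, 0.151, 11.7 and 0.228 CPM at day 3. The day 3 library of replicate 3, which held 11.7 CPM, also carried 1648 CPM of macrophage transcripts and 13.9 CPM of Pdgfra, against 0.228 to 0.871 CPM of Pdgfra in the other 3 control libraries at day 3. The log2 change of C3 was -0.65 ± 1.30 with that library and 2.33 without it (edgeR adjusted p = 0.686 and 0.0148). In satellite cells with BAT at day 3, C3 stood at 0.690, 11, 0.354 and 29.2 CPM, and Pdgfra stood at 0.383, 7.63, 0.101 and 19.1 CPM in the same libraries. The same 2 libraries were high for both genes, and the one with 29.2 CPM of C3 also carried 1869 CPM of macrophage transcripts. The part of FAP or macrophage RNA in these C3 levels was not tested. Between BAT and CTL in satellite cells, 0 of 8 genes passed at day 7, where 4 of 16868 genes (0.0237%) passed, and 0 of the 7 that were tested passed at day 3, where 0 of 15631 genes (0%) passed and 469 had an unadjusted p under 0.05. C1s1 had the lowest p of the 8 at day 7, with a log2 change of 0.72 ± 0.30 (edgeR adjusted p = 0.68), and passed without replicate 2 or without the filter on low counts.

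The day change itself was compared between the cell types in control muscle, with the mouse as a block. The genes were chosen by their levels in FAPs, which enter this comparison, so its p-values are not independent evidence for them. The change was smaller in FAPs than in satellite cells for Serping1, by a log2 difference of -2.33 ± 0.30 (edgeR adjusted p = 0.000826), and for C1s1, by -2.48 ± 0.71 (edgeR adjusted p = 0.0372). These are 2 of 8 genes, where 23.7% of all genes were called in this test, 15.3% lower and 8.42% higher. C1s1 lost its call in 5 of 8 fits that left out a mouse, with log2 differences between -2.86 and -1.98, and Serping1 kept it in all 8, between -2.62 and -2.12. C1ra had a difference of -2.37 ± 0.78 (edgeR adjusted p = 0.0624) and Cd55 one of 1.25 ± 0.46 (edgeR adjusted p = 0.0807), and DESeq2 and limma voom called both as well.

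The satellite cell level was also set against that of FAPs for the complement genes and for 8 FAP markers. In control muscle at day 7, Serping1 in satellite cells stood at 18.9% of its FAP level, C1s1 at 11.6%, C2 at 22.9% and C1ra at 6.19%, against 0.258% for C3 and 0.895% for Cfb. The FAP markers lay between 0.439% and 15.6% with a median of 1.16%, and the highest of them was Dpt, which encodes the matrix protein dermatopontin. Pdgfra stood at 1.01%. At day 3 the same 4 complement genes stood at 3.26% for Serping1, 1.76% for C1s1, 14.9% for C2 and 1.41% for C1ra, where the FAP markers had the same median of 1.16% and Dpt stood at 0.782%. C4b stood at 2.54% and Cd55 at 4.35% at day 7. Thus 6 of the 8 complement genes stood at a larger share of their FAP level than Pdgfra did, and C3 and Cfb at a smaller one. Of the other 7 FAP markers, 4 also stood above Pdgfra, namely Dpt, Cd34 at 4.69%, Dcn at 2.54% and Lum at 1.3%, so that Serping1 and C2 lay above the range of the 8 markers, C3 below it and the other 5 complement genes within it.

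**Figure D4:**
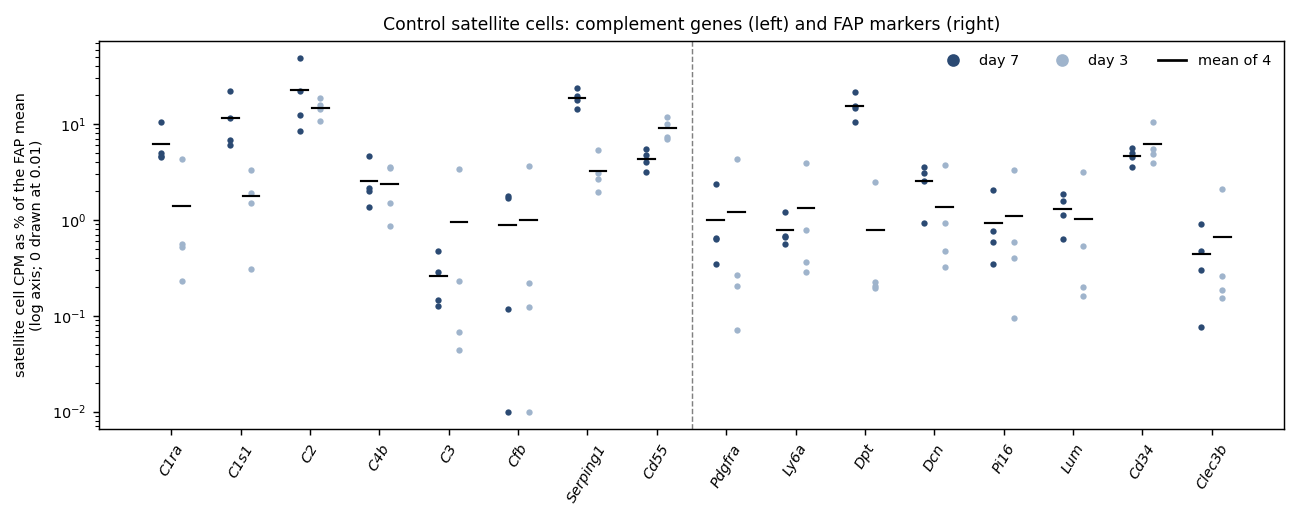
Level of 8 complement genes (left of the dashed line) and 8 FAP markers (right) in control satellite cells as a percentage of the FAP mean of the same day, on a log axis, with points for single libraries and bars for the mean of 4. At day 7 Serping1 stands at 18.9% and C3 at 0.258% of the FAP level, on either side of Pdgfra at 1.01%.

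The other genes of the system were taken from lists of 15 initiators, 9 alternative and terminal components, 15 regulators and 10 receptors. Among the initiators, 10 were tested in control FAPs between days, and 5 were higher at day 7 and 0 lower, where 11.5% of all genes were called in each direction. These were C1rb (log2 change 1.66), C1s2 (1.80) and the collectins Colec10 (3.38), Colec11 (2.29) and Colec12 (1.16), soluble or membrane lectins that bind sugars. C1rb and C1s2 are the relatives that may share reads with C1ra and C1s1, so their calls may not be separate. In control FAPs, C1rb stood at 7.22% of C1ra at day 7 and 6.88% at day 3. There C1s2 averaged 2.06 CPM at day 7 and 0.62 CPM at day 3, and Colec11 reached at most 1.99 CPM in any FAP library. With BAT, 3 of 10 were higher, where 10.3% of all genes were called higher, namely C1rb, Colec11 and Colec12. Masp1, which encodes a protease of the lectin pathway, averaged 10.8 CPM at day 7 and 10.7 CPM at day 3 in control FAPs and did not pass. Among the regulators, 3 of 8 tested were higher at day 7 in control FAPs and 0 lower, where 11.5% of all genes were called higher, and 2 of 7 with BAT, where 10.3% were. Clu and Vtn, which encode the terminal pathway inhibitors clusterin and vitronectin, had log2 changes of 2.88 and 1.54, and Cd59a, which encodes a membrane inhibitor of the terminal complex, one of 0.89. Cr1l, the mouse membrane regulator Crry, did not pass, averaging 73.8 CPM at day 7 and 76.8 CPM at day 3 in control FAPs (log2 change 0.00 ± 0.13).

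Terminal components were scarce. Of 9 alternative and terminal genes 3 were tested, and 0 passed between days in control FAPs, while C7, a component of the membrane attack complex, passed with BAT at a log2 change of 2.16 (edgeR adjusted p = 0.0462). C7 in control FAPs stood at 32.1, 9.41, 0.725 and 15.1 CPM at day 7, with the lowest level in replicate 3, against 4.68, 5.43, 1.32 and 4.93 CPM at day 3. In FAPs with BAT it averaged 10.4 CPM at day 7 and 2.37 CPM at day 3. The days overlapped there, with a day 7 minimum of 0.818 CPM and a day 3 maximum of 2.74 CPM. Whether the C7 call holds without single replicates was not examined. None of the 6 receptors tested passed between days in either treatment. C1qb, which encodes a chain of C1q, the recognition part that carries C1r and C1s, stood at 452 CPM in the macrophage-bearing FAP library with BAT at day 3, against 0.308 to 10.3 CPM in the other 15 FAP libraries. The anaphylatoxin receptor gene C3ar1 stood at 130.2 CPM in that library and at no more than 1.64 CPM in the others. None of the other complement genes tested passed between BAT and CTL in FAPs on either day.

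**Figure D5:**
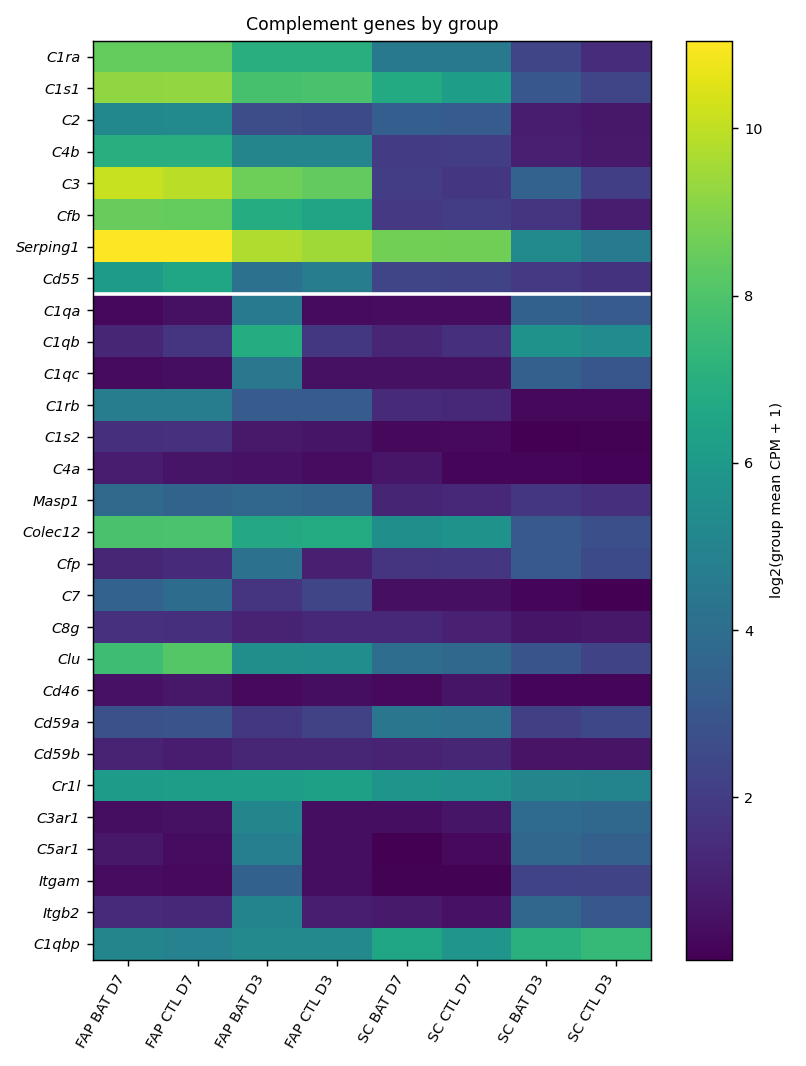
Group means of the 8 complement genes (above the white line) and of 21 other complement genes on a log2(CPM + 1) scale, with groups in columns. The 8 genes are brightest in FAPs at day 7, while C1qa, C1qb, C1qc, C3ar1 and C5ar1 are brightest in FAPs with BAT at day 3, the group that holds the macrophage-bearing library.

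Cytokines and signalling genes known to act on complement transcription were read beside them. Of 16 tested in control FAPs between days, 2 were higher at day 7 and 0 lower, a share close to the 11.5% of all genes called higher. Irf1, an interferon-induced transcription factor, stood at 355, 254, 419.6 and 260.3 CPM at day 7, against 109, 111, 112 and 106 CPM at day 3 (log2 change 1.62 ± 0.19, edgeR adjusted p = 0.00106). Socs3, which encodes a feedback inhibitor of cytokine signalling, had a log2 change of 0.97. With BAT, 3 of 16 were higher, where 10.3% of all genes were. These were Irf1, Stat3 and Socs3, with log2 changes of 1.75, 0.49 and 1.24. Between BAT and CTL, 1 of 16 passed at day 3, namely Lif, a cytokine of the IL-6 family, which stood at 94.6, 166, 212 and 129.7 CPM with BAT, against 44.3, 96.8, 96.5 and 73.6 CPM in control (log2 change 0.99 ± 0.10, edgeR adjusted p = 0.0302), where 0.0251% of all genes passed. Lif exceeded its control level in 4 of 4 mice, but its call was lost without replicate 3, without replicate 4 and without the block, in each of which 0 genes passed. Whether Lif and the complement genes are linked was not tested. In control satellite cells between days, 11 of 17 genes tested from this list were higher at day 7 and 0 lower. There 29.6% of all genes were called higher. Irf1 had a log2 change of 2.80 in control satellite cells and Socs3 one of 3.28, so neither rise was particular to FAPs.

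Across the 16 FAP libraries the 8 genes followed one another, as a description of libraries that share days and mice. Over the 28 pairs of genes, Pearson's r of log2(CPM + 1) lay between 0.45, for C3 and Cd55, and 0.97, with a median of 0.88. After the group means were subtracted, r lay between -0.56 and 0.75 with a median of 0.14, and 17 of 28 pairs were above 0. Among the 8661 genes compared, the mean profile of the 8 was most like that of Gbp2 (r = 0.984), Sfrp4 (0.981), Cpz (0.965), C1rb (0.960), Egfl6 (0.959) and Mmp2 (0.955). With group means subtracted, the closest were Chp1 (0.848), Gbp2 (0.815) and Ackr3 (0.799), and Gbp2 was in both sets of 6. Gbp2, which encodes an interferon-induced guanylate-binding protein, averaged 119.6 CPM in control FAPs at day 7 and 37.0 CPM at day 3.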

How the data were processed

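RNA was extracted from sorted cells with an RNeasy micro kit and made into cDNA with a SMARTer Ultra Low kit, per the labels' protocols. Reads were processed with DRAGEN on mm10, per the submitters' processing notes, while no source used here gives the counting annotation or strand setting. The deposited tables, 1 per day, hold the authors' expected counts, 1 value per gene and library, of which 71.8% of the values above 0 are whole numbers. Here 287 repeated gene entries with identical values were removed from each table and the expected counts were rounded for the tests. CPM is the count over the library total, scaled to 1000000 counts, with no other scaling. Intervals implied by depth cover counting error only.

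Tests used edgeR 4.0.16 (quasi-likelihood, robust, TMM factors, filterByExpr with a minimum count of 10 and total of 15) in R 4.3.3, with Benjamini-Hochberg adjustment over all genes and a threshold of 0.05. The standard error is the log2 change divided by the square root of F. The mouse was a block for BAT against CTL and for FAPs against satellite cells, since paired libraries share a mouse, per the labels. As a check, deviations from group means correlated between the BAT and CTL libraries of a mouse at 0.513 in FAPs and 0.367 in satellite cells at day 7, and at 0.144 and -0.0347 at day 3. For 1 day 3 mouse the labels give no code for all of its libraries, and they were taken as 1 mouse. Alternatives were RLE size factors, no filter, DESeq2 1.42.0, limma voom (limma 3.58.1), no block and leaving out replicates. Replicates of a group carry different mouse codes in the labels, apart from the mouse without a code. In the tests between days, p-values measure the spread between mice. In the tests with the mouse as a block, they measure the spread of the differences within mice. The named genes are the 8 members, the called genes of the listed complement and signalling sets, and the 6 genes with the most similar profile among those with a mean of at least 10 CPM in FAPs. From the lists and the profile comparison, 2 genes were left out and are not reported here. The members and all lists were chosen with earlier results of these data known. The fits were tested on simulated data: with 4-fold changes, 93% of changed genes were recovered for control FAPs between days and 97% for BAT against CTL in FAPs at day 7, and with 2-fold changes 37% and 75%. For BAT against CTL in FAPs at day 3, 94% were recovered with 4-fold and 69% with 2-fold changes. Smaller changes were not simulated, so recovery is not known for log2 changes of -0.44 to 0.44, the range fitted for BAT in FAPs.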

Additional observations from a re-analysis of the deposited data

Results flagged for a closer look

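In 6 of 64 gene and group combinations with 4 libraries, 1 library stood apart from the other 3 by the gap between them relative to the range, and chance gives about 1 in 20 such cases. In control satellite cells at day 3, the library of replicate 3 stood apart for C1ra at 5.33 CPM (others 0.283 to 0.697 CPM), for C3 at 11.7 CPM (others 0.151 to 0.795 CPM) and for Cfb at 3.25 CPM (others 0 to 0.194 CPM). That library also held 1648 CPM of macrophage transcripts and 255 CPM of FAP marker transcripts, where the other 3 held 8.06 to 45.7 CPM and 38.2 to 63.9 CPM, and their part in these levels was not tested. In the control satellite cells of replicate 2 at day 7, C1ra reached 37.2 CPM, with 15.8 to 17.3 CPM in the others. C3 was lowest in control FAPs at day 3 in replicate 3, at 269 CPM, with 360.4 to 372 CPM in the others. Serping1 stood at 3494 CPM in FAPs with BAT at day 7 in replicate 3, with 1527 to 1765 CPM in the others, while the control FAPs of the same mouse had 2327 CPM. The change between days differed between FAPs and satellite cells for C1s1, by a log2 difference of -2.48 (edgeR adjusted p = 0.0372), and for Serping1, by -2.33 (edgeR adjusted p = 0.000826). Levels that chose the genes enter this test, so it is not independent evidence for them.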

How the results depend on the processing

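The 8 higher calls at day 7 in FAPs held under RLE size factors, DESeq2 and limma voom in both treatments, and 7 to 8 held when a replicate number was left out; without the filter, C3 with BAT missed the threshold (edgeR adjusted p = 0.0525). Without the replicate block, 0 of 8 genes passed between BAT and CTL in FAPs on each day, as with it, and Serping1 at day 7 changed sign to 0.01. For all genes between BAT and CTL in FAPs, 4 calls at day 3 became 35 with no filter, 40 with DESeq2 and 0 without the block, and 0 calls at day 7 became 145, 23 and, with limma voom, 1. With BAT against CTL in satellite cells at day 7, 1 of the 8 genes (C1s1) passed with no filter, and 0 to 1 when a replicate was left out; over all genes, 4 calls became 206 with no filter, 40 with DESeq2 and 0 without the block. Over both days in FAPs, 1 passed with DESeq2 (Cd55). For the difference of the day change between FAPs and satellite cells, 1 passed with no filter, 4 with DESeq2, 4 with limma voom and 1 to 3 when a mouse was left out. The cause of these shifts was not tested. Leaving out a replicate gave log2 ranges across 0 at day 3 for C1s1 (-0.04 to 0.05), C1ra (-0.07 to 0.14) and C4b (-0.07 to 0.16), and at day 7 for C1s1 (-0.10 to 0.04), Serping1 (-0.28 to 0.05), C4b (-0.16 to 0.24), C1ra (-0.02 to 0.08) and Cfb (-0.07 to 0.17). The day difference of the BAT change of Cd55 ran over -0.05 to 0.28. In control satellite cells between days, C3 gave 1.29 with limma voom, 2.33 without the day 3 control library of replicate 3, and -1.09 to 1.98 when a replicate number was left out. Depth limits the satellite cell values of C3 and Cfb, several of which lie near the floor of 3 counts. Cfb was not tested in satellite cells between days without replicate 3.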

Other observations

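Cfb was listed at 0 in the control satellite cell library of replicate 1 at day 7, where the read-through gene Gm20547, which covers Cfb, held 66.79 expected counts. In the other 3 control satellite cell libraries at day 7, Cfb held 194, 149 and 9.82 expected counts and Gm20547 held 0, 0 and 3.97. In FAPs, Gm20547 held at most 7.15 expected counts beside 1764 to 12805.31 of Cfb. The assignment of reads between these overlapping genes was not tested.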
